A study of Mus musculus with 9 samples.

Results

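The neuregulin and epidermal growth factor (EGF) receptor family was examined through 6 ligand genes, Nrg1, Hbegf, Areg, Ereg, Egf and Btc, and the 4 receptor genes Egfr, Erbb2, Erbb3 and Erbb4. Members were found by an exact match of the gene symbol in the platform's probe annotation. Of the 10 genes, 9 had at least 1 probe set, 18 probe sets in all, among 18193 genes measured, while Areg was not analysed here. The tissue was right ventricular myocardium of male C57BL6J mice 6 to 8 weeks old, and its RNA was measured on Affymetrix arrays with 1 colour. In 5 samples the pulmonary artery had been banded, which makes the right ventricle eject against a raised pressure, and 4 samples came from sham-operated mice. No transgene or deleted allele is named for either group. The sources used here do not give how long after surgery the tissue was taken, or in which batches the arrays were run. Replicates are numbered, but no label ties a number to its own animal, so the p-values measure the spread between these samples.

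ErbB receptors are receptor tyrosine kinases of the plasma membrane that pair up when an EGF-like ligand binds. Egfr takes up EGF, amphiregulin, epiregulin, betacellulin and heparin-binding EGF, Erbb4 takes up neuregulins and several of the others, Erbb3 binds neuregulins but has very weak kinase activity of its own, and Erbb2 has no known ligand and serves as the preferred partner. In the heart, neuregulin-1 from endocardium and small vessels acts on Erbb4 and Erbb2 of cardiomyocytes, a pathway needed for trabeculation in the embryo and for tolerance of stress in the adult. Most ligands are made as membrane-anchored precursors and released by metalloproteinases.

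Values are log2 expression per probe set as deposited, with a lowest value of 2.20 in the table. Groups with a mean below 4.20, a level set 2 log2 units over the lowest value, are called dim. Each gene was represented by its brightest probe set unless stated otherwise, and differences, with their standard errors, are banding minus sham in log2 units. Calls were made at an adjusted p of 0.05 in limma with Benjamini-Hochberg adjustment over all genes. Many probe sets carry one value, within 0.01 log2 units, on several arrays, and where this happened the arrays could not be ordered. The number of arrays limits the precision.

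Both groups carried cardiomyocyte transcripts at high levels, as the tissue label asks, with a mean over 8 ventricular markers of 14.81 ± 0.09 (SD, n = 5) after banding and 15.13 ± 0.01 (SD, n = 4) after sham surgery. Liver transcripts were also present, mostly on the sham arrays. The mean over 12 hepatocyte genes was 9.83, 9.40, 8.37 and 12.42 on sham replicates 1 to 4 and lay between 2.71 and 2.78 on banding replicates 1 to 4, with 4.52 on banding replicate 5. All 12 were lower in banding, and their summed linear signal ran from 9844 to 123862 in sham and from 85.0 to 754 in banding. Sham replicate 4 therefore stood apart, and results that rest on it are given with and without it. Of the marker lists of other cells, 8 of 8 fibroblast genes, 7 of 8 macrophage genes, 5 of 6 smooth muscle and pericyte genes and 4 of 8 endothelial genes were higher in banding, while 6 of 8 cardiomyocyte genes and 1 endothelial gene were lower. The mean over 4 atrial genes varied widely within each group, from 9.25 to 11.88 in sham and from 10.55 to 13.59 in banding. In whole tissue, fewer cells of a type and less RNA per cell cannot be told apart.

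Members of the family moved in both directions with banding. Hbegf and Ereg were higher, Egf and Erbb3 were lower, and the other 5 measured members did not pass the threshold. The 4 called members of 9 compare with 38.4% of all genes called. Genes called higher made up 18.4% of all genes and genes called lower 20.0%, or 2 of 9 members each way. Among genes above the dim level in at least 1 group, to which 6 of the 9 members belong, 62.0% were called. Of those 6 members 4 were called, a share near that background. The groups did not overlap for the 4 called members, a separation that 36.7% of all genes showed. The median difference over the 9 members was 0.01, against 0 over all genes and -0.01 over genes above the dim level. Centring each array on its median moved the median of all genes by -0.13 and the split of all called genes from 3356 higher and 3633 lower to 2840 and 5096, but the members kept 2 higher and 2 lower. The hepatocyte mean as a covariate correlated with the group at -0.95 over the 9 arrays, so that both can hardly be told apart. With it, 0 members and 5.99% of all genes passed the adjusted threshold in limma. An unadjusted p under 0.05, a looser cut, was reached by 3 members, Egf, Egfr and Erbb4, of which only Egf was called without the covariate. The share of all genes at that looser cut was not counted. Without sham replicate 4, 4 members passed, with Egfr in place of Ereg.

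**Figure D1:**
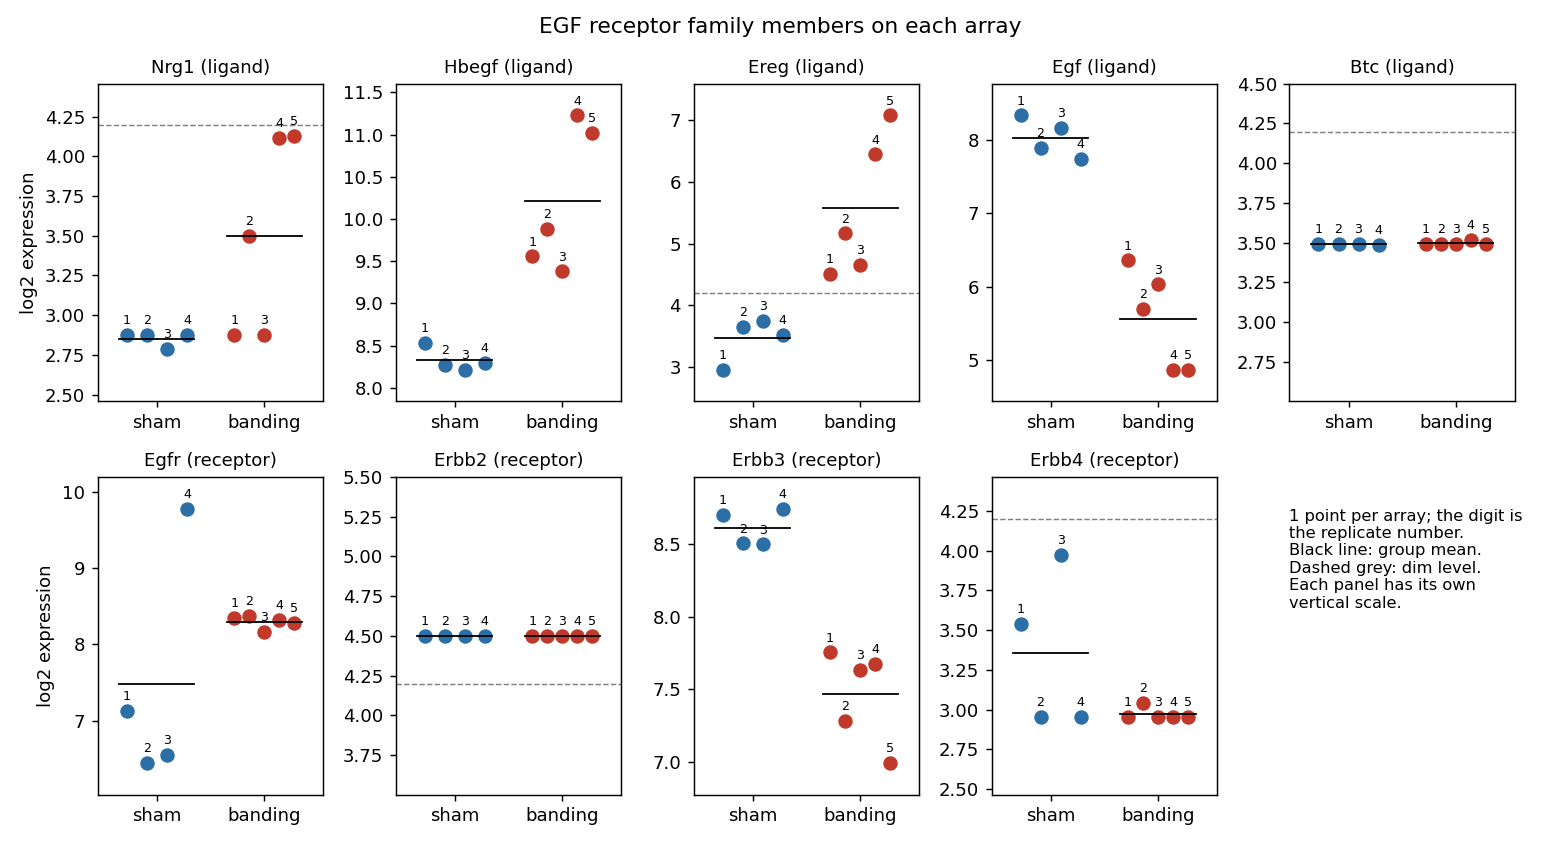
Log2 expression of the brightest probe set of each measured member on the 4 sham and 5 banding arrays, 1 point per array with its replicate number, the group mean as a black line and the dim level of 4.20 as a dashed line where it falls in the panel (each panel has its own scale). Hbegf, Ereg, Egf and Erbb3 separate the groups, Egfr does so on all arrays but sham replicate 4, and Btc and Erbb2 lie at 1 level.

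Among the ligands, Hbegf encodes heparin-binding EGF-like growth factor, a membrane-anchored ligand of Egfr and Erbb4. It stood at 8.53, 8.27, 8.22 and 8.29 on sham replicates 1 to 4. On banding replicates 1 to 5 it stood at 9.56, 9.88, 9.38, 11.23 and 11.02. Every banding array was above every sham array, and banding replicates 4 and 5 lay more than 1 log2 unit above the other 3. Hbegf rose 3.69-fold (log2 1.88 ± 0.42, adjusted p = 0.00914). On average it stood at 8.33 ± 0.14 in sham (SD, n = 4) and at 10.21 ± 0.85 in banding (SD, n = 5). Its second probe set gave the same picture, with 6.92, 6.98, 6.22 and 6.75 in sham and 7.80, 8.10, 7.76, 9.53 and 9.41 in banding. When all probe sets were tested singly, both probe sets of Hbegf passed (adjusted p = 0.0115 and 0.0196). Across all 34945 probe sets 31.4% passed, and 5 of the 18 member probe sets did. The Hbegf call was lost with the hepatocyte covariate (log2 2.82 ± 1.41, adjusted p = 0.256).

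Ereg encodes epiregulin, a ligand of Egfr and Erbb4 made by macrophages and epithelia among others. Sham values were 2.96, 3.65, 3.75 and 3.53, all under the dim level. Banding values were 4.51, 5.17, 4.65, 6.44 and 7.08, all above it, and replicates 4 and 5 were again the highest. The groups did not overlap, but the banding arrays spread widely, with an SD of 1.14. Ereg rose at least 2.59-fold (log2 2.10 ± 0.58, adjusted p = 0.0226), the fold being taken against the dim level. The call sat close to the threshold. It was lost without banding replicate 4 (1.88, adjusted p = 0.0508), without sham replicate 1 (1.93, adjusted p = 0.065) and without sham replicate 4 (2.12, adjusted p = 0.0509). Leaving out banding replicate 5 as well as sham replicate 4 also lost it (1.74, adjusted p = 0.0584). So did the hepatocyte covariate (3.52 ± 1.91, adjusted p = 0.294) and raising all lower values to the dim level (1.37, adjusted p = 0.106). The 19 alternatives gave Ereg an adjusted p of 0.00587 to 0.294. Macrophage markers were higher on the same arrays, with a list mean of 9.89 ± 0.23 (SD, n = 5) against 8.52 ± 0.21 in sham (SD, n = 4). Their summed linear signal was 16540 to 23928 against 8935 to 10757, and their part in the rise of Ereg was not tested. Of 7 epithelial and mesothelial genes, 3 were called higher and 0 lower, and Epcam, among those called, was dim in both groups. The mean of these 7 was 4.59 ± 0.33 (SD, n = 5) in banding and 4.17 ± 0.29 in sham (SD, n = 4). These means gave an exact permutation p of 0.0952 (two-sided). The part of these genes was not tested either.

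Ereg lies in a run of 4 neighbouring ligand genes on chromosome 5 in the RefSeq annotation of GRCm38.p6, in the order Epgn, Ereg, Areg and Btc. Epgn, which encodes epigen, lay at the lowest value of the table on 8 arrays within 0.01 log2 units. Btc encodes betacellulin, a ligand of Egfr and Erbb4. Its brighter probe set lay between 3.49 and 3.52 on all 9 arrays and its other probe set at 2.84 on 8 of them, with 2.96 on banding replicate 4. Of the 3 genes measured in this run, Ereg alone was above the dim level in a group.

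Egf encodes the EGF precursor, a large membrane protein from which the Egfr ligand is cut. Among members above the dim level in both groups it had the greatest difference. Sham replicates 1 to 4 stood at 8.33, 7.89, 8.17 and 7.74. Banding replicates 1 to 3 stood at 6.36, 5.69 and 6.03, and replicates 4 and 5 shared the value 4.87. Whether that value is the lowest this probe set can read was not tested. All banding arrays lay below all sham arrays by more than 1 log2 unit. Egf fell 5.54-fold (log2 -2.47 ± 0.35, adjusted p = 0.00103). Its means were 8.03 ± 0.27 in sham (SD, n = 4) and 5.56 ± 0.68 with banding (SD, n = 5). Without sham replicate 4 the fall was as large (-2.57 ± 0.40). Egf has 1 probe set, and its name marks it as shared between transcripts, so that leaving out such probe sets removed the gene. The call was lost with the hepatocyte covariate (-3.76 ± 1.09, adjusted p = 0.0936).

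Promoter sequences of RefSeq (GRCm38.p6), 250 bases before to 50 after the transcript start, were examined here for 6 of the 10 members, without Hbegf. Those of Egf and Egfr are shown because these members gave the greatest ligand difference measured in both groups and the receptor difference most tied to 1 array. Both strands were searched for 4 motifs. The TATA box, searched as TATAAA, was found in 13.6% of all 32851 promoters of that length. The GC box, searched as GGGCGG, was found in 35.7% of them. The CCAAT motif was found in 37.4%. The AP-1 motif, searched as TGACTCA, was found in 5.20%. Egf had 2 entries, and neither held any of them. The first (chr3:129755273-129755572, minus strand), in which 49.0% of the bases were G or C, is shown, and the second had 52.3% G or C.

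Egf: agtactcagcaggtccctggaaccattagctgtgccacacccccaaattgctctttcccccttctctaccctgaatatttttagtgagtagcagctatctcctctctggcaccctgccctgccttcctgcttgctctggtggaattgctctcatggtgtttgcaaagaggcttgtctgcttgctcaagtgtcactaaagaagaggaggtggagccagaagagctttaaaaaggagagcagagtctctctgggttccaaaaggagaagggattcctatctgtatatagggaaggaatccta

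The Egfr promoter (chr11:16751953-16752252, plus strand) held 1 GC box, on the opposite strand and in capitals below, no match to the other motifs, and 62.3% G or C, where the median over all promoters was 52.7%.

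Egfr: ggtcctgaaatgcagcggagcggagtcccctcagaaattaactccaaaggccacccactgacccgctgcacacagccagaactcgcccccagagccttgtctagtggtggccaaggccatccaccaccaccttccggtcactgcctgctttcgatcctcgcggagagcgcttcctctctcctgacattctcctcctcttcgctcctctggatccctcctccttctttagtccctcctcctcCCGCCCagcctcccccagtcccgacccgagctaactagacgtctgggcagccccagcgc

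Nrg1 encodes neuregulin-1, the ligand of Erbb3 and Erbb4 that endothelial cells supply to cardiomyocytes. Its 1 probe set lay at 2.87, 2.87, 2.79 and 2.87 in sham and at 2.87, 3.50, 2.87, 4.11 and 4.13 in banding. Sham replicates 1, 2 and 4 and banding replicates 1 and 3 thus shared 1 value, and banding replicates 4 and 5 were highest, as for Hbegf and Ereg. Both group means were dim, so no fold is given. The difference of 0.64 ± 0.31 did not pass (adjusted p = 0.153), and its 95% confidence interval ran from -0.07 to 1.36. Nrg1 has many isoforms, and 1 dim probe set does not show which of them are present.

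The receptors were led by Erbb3, the neuregulin receptor with little kinase activity. It stood at 8.70, 8.51, 8.50 and 8.74 on the sham arrays. In banding it stood at 7.75, 7.28, 7.63, 7.67 and 6.99. No banding array reached the lowest sham array, and replicate 5 was the lowest of all. Erbb3 fell 2.21-fold (log2 -1.14 ± 0.17, adjusted p = 0.00114). Sham arrays averaged 8.61 ± 0.13 (SD, n = 4) and banding arrays 7.47 ± 0.32 (SD, n = 5). The fall was -1.10 ± 0.19 without sham replicate 4, and the mean of both probe sets gave -0.66. The second probe set was dim on all arrays, between 2.20 and 2.85, and did not pass. With the hepatocyte covariate the call was lost (-1.31 ± 0.57, adjusted p = 0.204). Erbb3 also marks Schwann cells. Of 4 Schwann cell markers measured, Mbp was higher (0.77, adjusted p = 0.00327), Cdh19 was lower (-1.15, adjusted p = 0.00794), and S100b and Sox10 were dim in both groups. The mean of these 4 genes ran from 4.47 to 4.85 in banding and from 4.50 to 4.80 in sham (exact permutation p = 0.849, two-sided), with a summed linear signal of 115 to 156 and 128 to 191. Their part in the fall of Erbb3 was not tested. The 4 sham arrays ranked alike for Erbb3 and for the hepatocyte mean, and that mean was lower on every banding array. Within the banding group the order differed. Replicate 5 had the highest hepatocyte mean, 4.52 against 2.71 to 2.78 on the others, and the lowest Erbb3. The part of liver RNA in the fall of Erbb3 was not tested either.

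Egfr, the receptor of Egf, Hbegf, Ereg and Btc, had 7 probe sets, and 1 array decided its result. The brightest stood at 7.13, 6.45, 6.55 and 9.78 on sham replicates 1 to 4. In banding it stood at 8.35, 8.37, 8.16, 8.31 and 8.29, with an SD of 0.08. Sham replicates 1 to 3 were thus all lower than every banding array, and sham replicate 4 was higher than every one. Over all 9 arrays the difference was 0.82 ± 0.67 and did not pass (adjusted p = 0.434, 95% confidence interval -0.74 to 2.38). Without sham replicate 4, Egfr was 3.0-fold higher in banding (log2 1.59 ± 0.16, adjusted p = 0.000591), where 36.5% of all genes passed. Sham replicate 4 was also the array with the most liver transcripts, and Egfr is strongly expressed in liver. The hepatocyte mean of 12.42 on that array compares with 8.37 to 9.83 on the other sham arrays. The part of liver RNA in the Egfr level was not tested. Holding the hepatocyte mean as a covariate, the Egfr difference was 5.50 ± 1.22 (adjusted p = 0.053).

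The other Egfr probe sets ranked the arrays in a like way where they gave a signal. The second stood at 6.40, 6.38, 6.12 and 8.93 in sham and between 7.52 and 7.81 in banding. The third, shared between transcripts, stood at 5.86, 6.04, 5.80 and 7.89 in sham and between 6.23 and 6.59 in banding. In a fit over all probe sets without sham replicate 4, the second rose by 1.39 ± 0.10 (adjusted p = 0.000252) and the third by 0.48 ± 0.09 (adjusted p = 0.00978), so that the 3 bright probe sets differed in the size of the rise. Another was dim in both groups, and the remaining 3 lay at the lowest value of the table on all 9 arrays. The mean of all 7 probe sets gave 0.24.

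**Figure D2:**
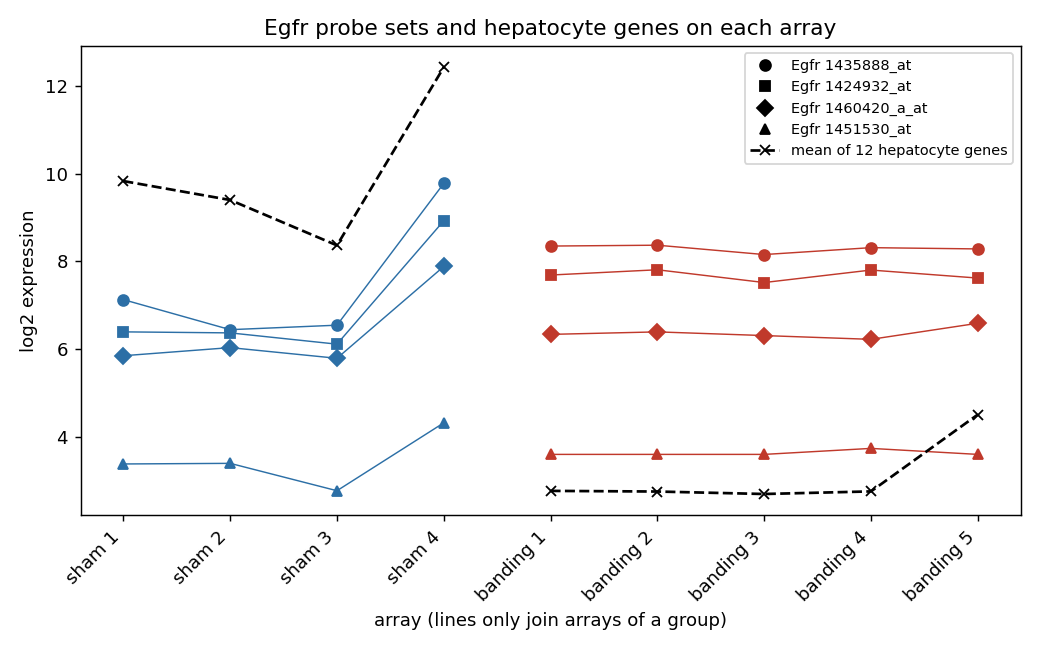
Log2 expression of the 4 Egfr probe sets above the lowest value (solid lines) and the mean of 12 hepatocyte genes (dashed line) on each array, where lines only join arrays of a group. All 4 Egfr probe sets and the hepatocyte mean are highest on sham replicate 4, where the brightest Egfr probe set reads 9.78 and the hepatocyte mean 12.42.

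Erbb2 and Erbb4, the receptor pair of cardiomyocytes, gave no usable measurement of a change. The 1 probe set of Erbb2 read 4.50 on all 9 arrays, within 0.01 log2 units. Of all 18193 genes, 3512 read 1 value throughout. Among the 11013 genes above the dim level in a group, to which Erbb2 belongs, only 11 did. A difference in Erbb2 could not be seen in such values. Quantile normalisation of the deposited values turned this shared value into a called fall of -0.11 ± 0.03 (adjusted p = 0.0117). Erbb4 stood at 3.54, 2.96, 3.97 and 2.96 in sham and at 2.96, 3.04, 2.96, 2.96 and 2.96 in banding. Its value of 2.96 was shared by 6 arrays, and only sham replicates 1 and 3 lay clearly above it. Both groups were dim, and the difference of -0.38 ± 0.21 did not pass (adjusted p = 0.219, 95% confidence interval -0.88 to 0.11).

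**Figure D3:**
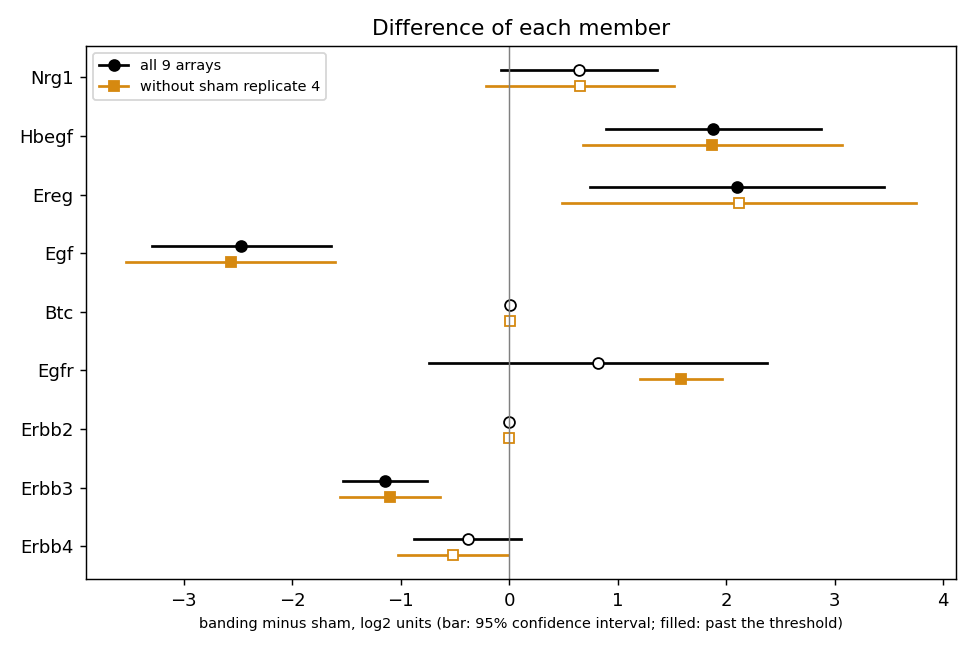
Banding minus sham difference of each measured member in log2 units with its 95% confidence interval, over all 9 arrays (black circles) and without sham replicate 4 (orange squares), filled where the adjusted p passed 0.05. Leaving out that array moved Egfr from 0.82 to 1.59 and narrowed its interval, while Hbegf, Egf and Erbb3 stayed called and Ereg did not.

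Within the banding group, replicates 4 and 5 had the highest values of Hbegf, Ereg and Nrg1 and the lowest of Egf. On the same arrays the cardiomyocyte mean was lowest, at 14.74 and 14.73 against 14.76 to 14.95, and so was the fibroblast mean, at 13.08 and 13.04 against 13.18 to 13.35. The macrophage mean was 9.76 and 10.18, against 9.57 to 9.97 on the other 3. These are descriptions of 5 arrays with no test.

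Genes whose profile came nearest to a called member were found by the root mean square distance between mean-centred profiles over the 9 arrays, among 11012 other genes above the dim level in a group. Nearest to Hbegf were Sphk1, which makes sphingosine-1-phosphate, at 0.18 log2 units, and Hspa1a, an inducible heat shock protein 70, at 0.24. Nearest to Ereg were Nlrc3 at 0.22 and Cip2a at 0.34. Egf lay nearest to Tmem25 at 0.15 and to Pxmp2, a channel protein of the peroxisomal membrane, at 0.17. Erbb3 lay nearest to Rbbp6 at 0.12 and Fam13a at 0.13. The distance is small beside the range of each member, which was 3.01 for Hbegf, 4.12 for Ereg, 3.47 for Egf and 1.75 for Erbb3, and the likeness includes the difference between the groups.

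Genes for ligand release were mostly higher in banding. Of 12 genes for proteases and proteins that cut, carry or restrain EGF-like ligands, 11 were higher in banding and 0 were lower. The remaining 1, Furin (0.12), did not pass, and the median difference was 0.78. All 12 were above the dim level in a group, where 62.0% of genes were called and 3277 of 11013 were called higher. With each array centred on its median, 8 were higher and 4 did not pass, and with the hepatocyte covariate 1 was higher. Of all 18193 genes, 2840 were called higher with centring and 513 with the covariate. Adam10, which cuts Egf and Btc precursors, stood between 10.73 and 10.85 in sham and between 11.71 and 11.95 in banding. It rose 2.06-fold (log2 1.04 ± 0.05, adjusted p = 1.66e-05). Adam12, a protease that can release heparin-binding EGF, rose at least 12.3-fold (4.11 ± 0.35, adjusted p = 0.000125). Adam19, which can process neuregulin, rose 3.40-fold, and Rhbdf1, an inactive rhomboid that carries Adam17 to the surface, rose 1.93-fold (adjusted p = 0.000302). Adam17, the main protease of most of these ligands, was named after its values were seen and rose 1.23-fold (0.30 ± 0.07, adjusted p = 0.0131). Fibroblasts express several of these proteases, and the mean of 8 fibroblast markers was 13.18 ± 0.12 (SD, n = 5) in the banding group against 10.99 ± 0.12 in sham (SD, n = 4). Its part in these rises was not tested.

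Among feedback and negative regulators, 8 of 18 rose, 1 fell and the other 9 missed the threshold, with a median difference of 0.42. All 18 were above the dim level in a group, where 62.0% of genes were called. Centred arrays gave 7 higher and 4 lower, quantile normalisation 8 and 3, and the hepatocyte covariate 3 and 0. Of all 18193 genes, 7936 passed with centring, 7648 with quantile normalisation and 1089 with the covariate. Spred1, an inhibitor of RAS signalling, rose 2.70-fold (log2 1.43 ± 0.06, adjusted p = 1.28e-05). Cbl, a ubiquitin ligase that sends activated Egfr to degradation, rose 1.70-fold (0.77 ± 0.04, adjusted p = 2.1e-05). Lrig3 rose 3.18-fold and Socs4 1.57-fold, while Lrig1, an inhibitor of ErbB receptors, was 1.26-fold lower (adjusted p = 0.0258) and was not called without sham replicate 4. Lrig1 was named after its values were seen, as were the next 3 genes. Dusp6, a phosphatase of ERK, and Spry1, a feedback inhibitor, rose 2.14-fold and 2.11-fold, and both were highest on banding replicates 4 and 5. Errfi1, the feedback inhibitor of Egfr and Erbb2, stood at 10.12, 8.99, 8.70 and 10.62 in sham and between 9.57 and 10.73 in banding and did not pass (0.40 ± 0.45, adjusted p = 0.565).

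Among 21 downstream adaptors and kinases, 4 were called higher and 8 lower, 9 missed the threshold, and the median difference was 0.00. With 2 of the 21 dim in both groups, the 12 called compare with 62.0% called among genes above the dim level. The other 6 genes written on this list were not analysed here. Shc1, an adaptor of activated receptors, rose 2.07-fold (log2 1.05 ± 0.11, adjusted p = 0.000269), Gab2, a docking protein, 1.93-fold (adjusted p = 5.19e-05) and Nras 1.53-fold (adjusted p = 0.000704). Akt1, a kinase of the phosphoinositide pathway, was 1.24-fold lower (-0.31 ± 0.04, adjusted p = 0.000869). That was the smallest of the 8 called falls, which reached -1.16 for Stat5a. With the hepatocyte covariate 0 of the 21 passed, where 1089 of all 18193 genes did.

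Of the 5 other EGF-family ligands, Tgfa, Epgn, Nrg2, Nrg3 and Nrg4, 0 passed in limma and 0 had an unadjusted p under 0.05. With centred arrays 3 were called lower, as were 5096 of all 18193 genes. That scaling also shifts genes held at 1 value. Tgfa, which encodes transforming growth factor alpha, stood at 4.38, 4.23, 4.16 and 5.10 in sham, highest on sham replicate 4, and between 3.95 and 4.19 in banding (adjusted p = 0.231). The other 4 shared 1 value on 8 of 9 arrays each. Over the 4 pathway lists together, 23 of 56 genes rose, 9 fell and 24 missed the threshold, whereas centred arrays gave 19 higher and 15 lower. The 32 called of 56, of which 6 were dim in both groups, stand beside 38.4% of all genes called and 62.0% of those above the dim level.

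**Figure D4:**
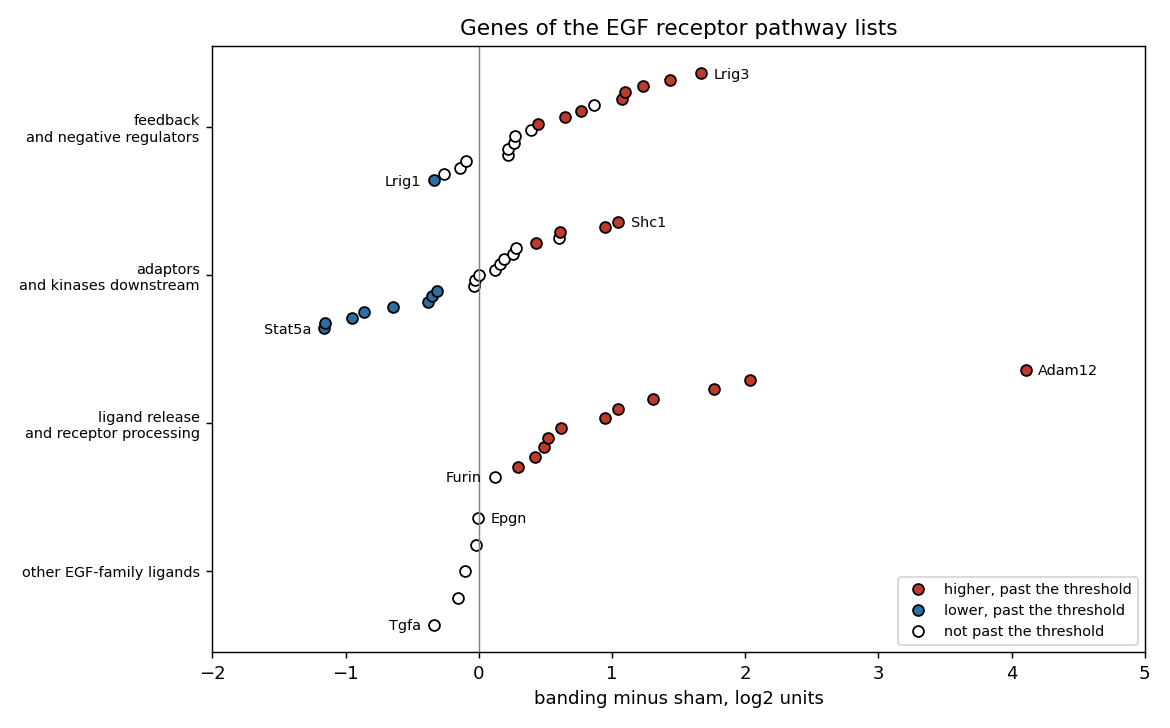
Banding minus sham difference in log2 units of each gene on the 4 pathway lists, 1 point per gene in order of its difference, coloured where it passed the threshold, with the genes at both ends of each list named. The 11 called genes of the ligand release list all lie above 0, up to Adam12 at 4.11, while the adaptors and kinases spread from Stat5a at -1.16 to Shc1 at 1.05.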

How the data were processed

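The deposited table held log2 expression for 45101 probe sets on 9 arrays, deposited by the authors. RMA and GCRMA are listed, with no role or order, in the submitters' processing notes. The log2 scale was read from the values, which spanned 2.20 to 16.43. The array medians were 3.23 to 3.31. Left out were 64 control probe sets, 9160 without a gene and 932 with several. The other 34945 named 18193 genes, and the brightest probe set, by its mean across the 9 arrays, stood for a gene. limma 3.58.1 under R 4.3.3 compared 5 banding with 4 sham arrays by lmFit and eBayes, two-sided, without covariates, adjusted over all genes. Single lists were compared by exact permutation, whose smallest p is 0.00794. The fit was tested on simulated data. Figures used matplotlib 3.10.9.

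Members and lists were chosen with earlier results of these data known. Named were all members, the genes with the smallest p of each pathway list, the nearest profiles, and genes marked as chosen after their values were seen. Furin, Stat5a and Epcam were also named after their values were seen. Alternatives changed the probe set rule, the filter on dim genes, the scaling, the floor, the variance model, a liver covariate or each array in turn, 1 choice at a time. Another left out sham replicate 4 and banding replicate 5 together, and the replicate block also dropped banding replicate 5.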

Additional observations from a re-analysis of the deposited data

Results flagged for a closer look

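Among 16 combinations of a member probe set and a group that held a value above the dim level and spread over at least 0.01 log2 units, 2 held an array far from the others of its group, and chance alone gives about 1 in 20. Both were sham replicate 4 in probe sets of Egfr, so they count as 1 event and not as 2 against that rate. The second Egfr probe set read 8.93 on that array, where the next highest sham array read 6.40. The third read 7.89, against 6.04 on the next highest. The brightest probe set, with 9.78 against 7.13, was not far enough apart by the same measure. The hepatocyte mean on this array was 12.42.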

How the results depend on the processing

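The direction of Hbegf, Ereg, Egf and Erbb3 held under all alternatives run for each. Hbegf was called in 17 of 19 alternatives (log2 1.63 to 2.82), Ereg in 12 of 19 (1.37 to 3.52), Egf in 17 of 18 (-3.76 to -2.30) and Erbb3 in 18 of 19 (-1.31 to -0.66). Egfr was called in 2 of 19, without sham replicate 4 (1.59) and without both that array and banding replicate 5 (1.59, adjusted p = 0.00233). The hepatocyte mean as a covariate nearly marks the groups. With it, calls fell to 0 members, 0 member probe sets, 4 pathway genes and 1089 of all genes. An unadjusted p under 0.05 in limma was reached by 6 member probe sets, and the share of all probe sets at that cut was not counted. The cause of the lost calls was not tested. Leaving out 1 array gave 3 to 7 member probe sets called, the lowest without sham replicate 3 and the highest without sham replicate 4, where 29.2% of all probe sets passed. The same replicate numbers across groups share only a number. Deviations of same-numbered arrays correlated between -0.03 and 0.04, and only 2 of the 4 pairs were above 0. A replicate block over replicates 1 to 4, which leaves out banding replicate 5, called 2 members (Egf and Erbb3) and 2 member probe sets, where 5277 of all 18193 genes passed, with Hbegf at 1.68 (adjusted p = 0.063) and Ereg at 1.72 (adjusted p = 0.0568). Under quantile normalisation 5 members passed, the fifth being Erbb2, and so did 7648 of all 18193 genes. Signal over background limits Nrg1, Btc, Erbb2 and Erbb4, which were dim or held at 1 value.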
